A study of Mus musculus with 18 samples.

Results

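The vomeronasal type 2 receptor genes of the mouse (Vmn2r) were examined for H3K9me3 in embryonic stem cells. The members were all genes of the deposited annotation whose name is Vmn2r followed by a number only and that lie on chromosomes 1 to 19, which gave 119 of the 34120 genes there. H3K9me3 ChIP-seq libraries were compared for 3 genotypes, WT, UHRF1KO and DHX9KO, with 2 libraries each, out of 18 samples in the study. All were made from E14TG2a (ES-E14TG2a), a mouse embryonic stem cell line grown in serum with LIF, with no dose or time point given. UHRF1KO cells lack UHRF1, which brings the maintenance DNA methyltransferase to newly copied DNA, and DHX9KO cells are labelled as lacking DHX9, an RNA helicase. In the study, UHRF1 was removed with CRISPR-Cas9 in clones of cells that carry a silencing reporter (8x-tetO sites and eGFP, with a TetR-KRAB fusion protein), how the DHX9KO cells were made is not given in the sources used here, and the replicates are biological replicates by the study's methods, although neither these nor the labels say whether they are separate clones.

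Vmn2r genes encode family C G protein-coupled receptors with a large extracellular domain, which bind peptide and protein pheromones. They are expressed by sensory neurons in the basal layer of the vomeronasal organ, where they signal through the G protein subunit Gnao1 and the channel Trpc2. The genes lie in clusters between other sensory receptor genes, and some are near-identical copies. H3K9me3 is a histone mark of silent heterochromatin, deposited by enzymes such as SETDB1 and the SUV39H proteins and found mostly on repeats in stem cells. The peaks analysed here measure the mark and not expression, and in bulk cells a mark on fewer alleles cannot be told apart from a weaker mark on all.

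Vmn2r genes were sparsely covered by H3K9me3 peaks in WT cells, and their mean coverage was not lower in the knockouts. The measure is the percent of a gene's window, its transcripts plus 5 kb on each side, that peaks cover. Over the 119 members the mean was 5.88% and 5.95% in WT replicates 1 and 2, 10.3% and 7.30% in UHRF1KO, and 7.05% and 9.85% in DHX9KO. By the mean, both libraries of each knockout were above both WT libraries. By the median the libraries of a knockout split: it was 4.05% and 4.06% in WT, 7.22% and 3.70% in UHRF1KO, and 3.59% and 7.69% in DHX9KO. Over all 34120 genes the mean was 20.6% and 19.7% in WT, 6.18% and 13.7% in UHRF1KO, and 19.7% and 15.8% in DHX9KO, so for genes at large both UHRF1KO libraries were below both WT libraries. Of the individual members, 2 passed a test of coverage in UHRF1KO against WT and none in DHX9KO against WT with limma. Coverage does not measure how strong a peak is. The median log2 fold of ChIP over background of the windows' peaks was 1.76 and 1.72 in WT. It was 1.82 and 1.97 in UHRF1KO and 1.28 and 1.42 in DHX9KO. Over the whole lists it was 1.05 and 1.06, 1.56 and 1.29, and 0.93 and 1.01, in the same order.

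**Figure D1:**
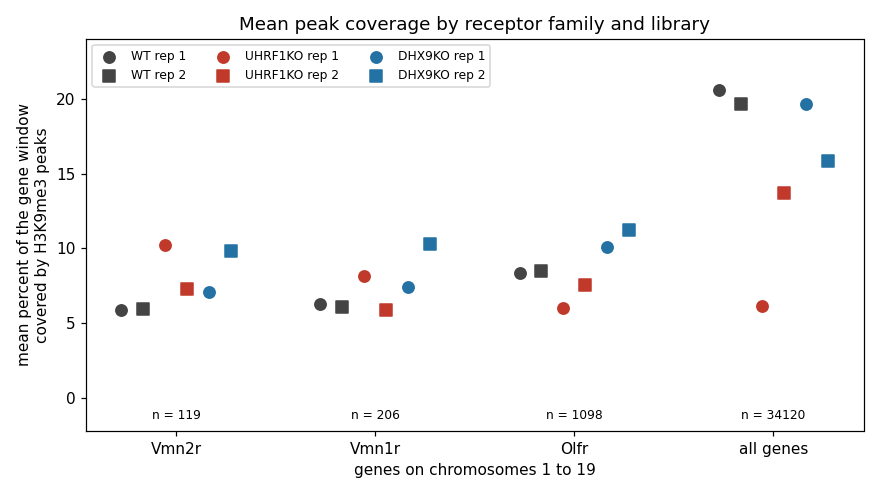
Mean percent of the gene window covered by H3K9me3 peaks (vertical axis) for Vmn2r, Vmn1r, Olfr and all genes of chromosomes 1 to 19 (horizontal axis), with 1 point per library (circle, replicate 1; square, replicate 2). Vmn2r genes sit between 5.88% and 10.3% in every library, while all genes range from 6.18% to 20.6%.

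UHRF1KO replicate 1 stands apart from the other libraries, with 70195 peaks against 93916 to 125453 elsewhere, 204 Mb called against 342 to 416 Mb, and 32.9 ChIP reads per kb called against 48.3 to 51.4. The background reads behind the UHRF1KO lists also differ from those behind the WT and DHX9KO lists. At a 2600 bp region within Vmn2r45 that every library called with the same bounds, the lists give 49 background reads in both WT and both DHX9KO libraries and 22 in both UHRF1KO libraries. Genotype and background library therefore cannot be told apart in any comparison with UHRF1KO. The windows of Uhrf1 and Dhx9 hold no peak in any of the 6 libraries, so peaks at these genes give no check of the labels. The stem cell markers Pou5f1, Sox2 and Zfp42 also have no peak in any library. Esrrb was covered to 48.98% and 52.5% in WT, 1.88% and 16.5% in UHRF1KO, and 33.7% and 29.8% in DHX9KO. Klf4 was covered to 0% and 1.72% in WT, 0% in both UHRF1KO libraries, and 21.3% and 9.13% in DHX9KO. Of the 6 markers, 2 could be tested with limma in UHRF1KO against WT, and Nanog was the only call, with lower coverage. Nanog was covered to 9.92% and 12.1% in WT and to 0% in both UHRF1KO libraries. It entered the test, which needs at least 2 covered libraries, only through WT and so could only fall. Among all 22681 genes tested, 15.5% fell.

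The members fall into 16 groups of windows less than 1 Mb apart, 12 of which hold more than 1 member. Chromosome 7 holds 51 members, chromosome 17 holds 31, chromosome 5 holds 11, chromosome 6 holds 9, chromosome 10 holds 8, chromosome 3 holds 7 and chromosome 14 holds 2. Windows are 18.4 to 151 kb long, with a median of 34.7 kb, and together they span 4.31 Mb. The windows of 10 members overlap that of another member, so these share peaks. The DNA around the members is poor in G and C: their median GC content is 37.0%, against 44.8% over all genes, and they hold a median of 4.13 CpG per kb against 11.3. Soft-masked repeats make up a median of 43.4% of a member's window, against 25.7% over all genes.

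Because some members are near-identical copies, it was asked how far a read could be placed in the members' windows. Of 175435 words of 150 bases, the read length of the study, taken every 25 bases from the members' windows, 28519 (16.3%) occur more than once in the genome. They are unevenly spread: 19 members have more than 50% of their words repeated, and 15 of these lie in the Vmn2r29 to Vmn2r52 cluster of chromosome 7, whose mean is 57.2%. Of these 19 members, 8 had no peak in any library. The study aligned reads with the default settings of Bowtie2, which report a single place for a read that matches several equally well, so reads of such members may lie on a copy, their values are uncertain, and 0 there does not show that the mark is absent.

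Peaks were found at most members but covered little of each. In the 6 libraries, in the order WT, UHRF1KO and DHX9KO, 80, 79, 86, 78, 74 and 82 of the 119 members had at least 1 base under a peak. In both WT libraries 76 members (63.9%) were covered, close to the 62.1% of all genes, while 32.5% of the 206 Vmn1r genes (the type 1 vomeronasal receptors) and 36.5% of the 1098 Olfr genes (odorant receptors) were. Windows differ in length, with a median of 34.7 kb for Vmn2r, 10.93 kb for Vmn1r, 10.95 kb for Olfr and 21.8 kb for all genes. The part of window length in these shares was not tested. By mean percent covered in WT, Vmn2r was not above the other families, at 5.92% against 6.19% for Vmn1r and 8.43% for Olfr. Over 20% covered in both WT libraries were only 3 members (2.52%), against 31.6% of all genes. Across the 6 libraries, 57 members were covered in every one and 19 in none.

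**Figure D2:**
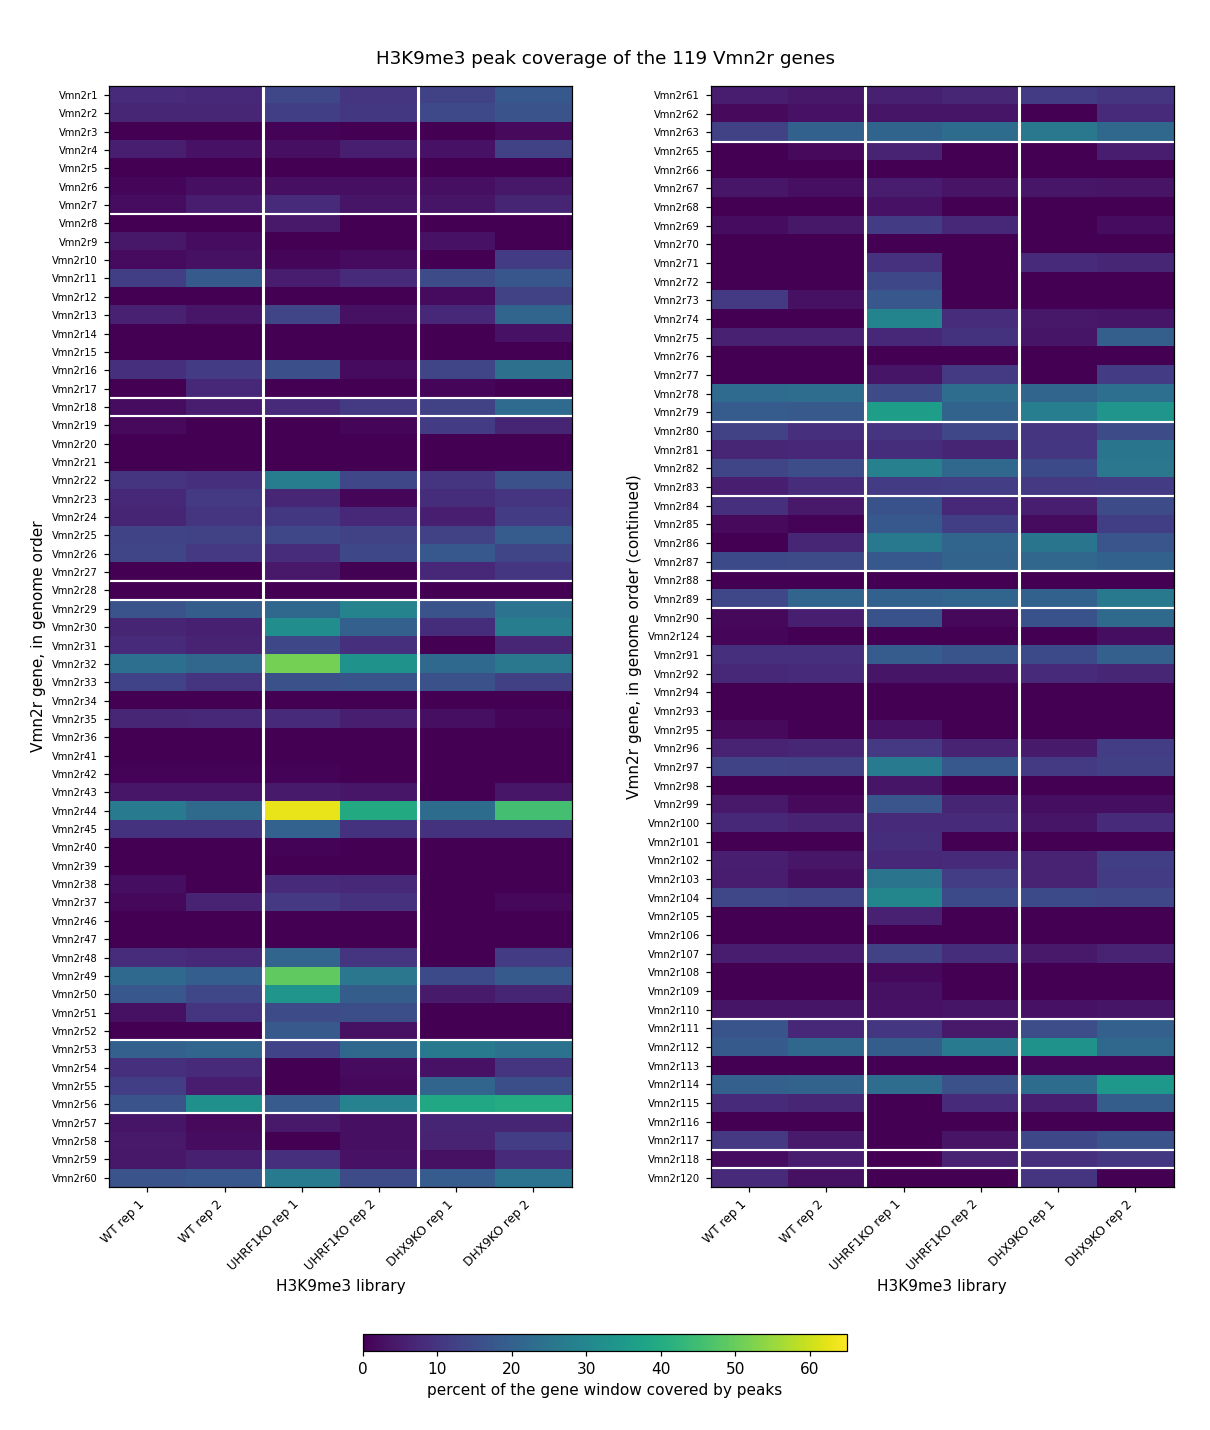
Percent of the gene window covered by H3K9me3 peaks (colour) for each of the 119 Vmn2r genes in genome order (rows, in 2 panels) and each of the 6 libraries (columns); white horizontal lines part gene clusters and white vertical lines part genotypes. Most cells are dark, and the brightest is Vmn2r44 in UHRF1KO replicate 1, at 62.8%.

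Peaks were few at the receptors' starts, and just after them, in every library. At the start itself, the outermost 5′ end of the annotated transcripts, 2 and 3 of 119 members had a peak in WT, 8 and 2 in UHRF1KO, and 2 and 3 in DHX9KO. The mean share of members with a peak from 10 to 0.5 kb before the start was 11.3% and 11.8% in WT, 18.4% and 14.4% in UHRF1KO, and 12.2% and 17.7% in DHX9KO. From 0.5 to 6 kb after the start it was 2.17% and 1.68% in WT, 3.22% and 1.68% in UHRF1KO, and 2.24% and 2.38% in DHX9KO. The share was lower after the start than before it in all 6 libraries, which is a description over members and not a test. Over all genes both ranges were close: 19.5% before and 19.3% after in WT replicate 1, and 6.65% and 5.42% in UHRF1KO replicate 1.

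**Figure D3:**
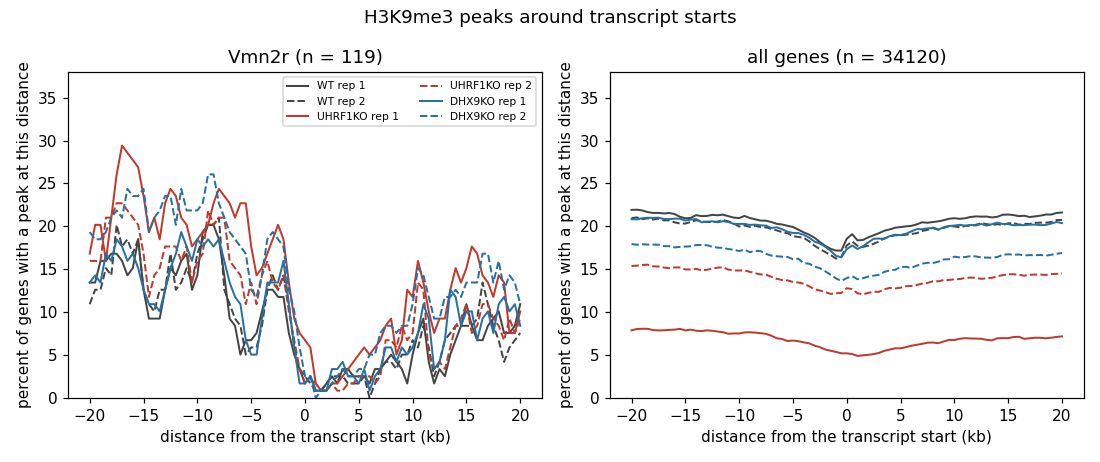
Percent of genes with an H3K9me3 peak (vertical axis) at each distance from the transcript start in kb (horizontal axis; negative is before the start), for the 119 Vmn2r genes and for all 34120 genes, with 1 line per library. In the Vmn2r panel all 6 lines drop at the start, to 2 to 8 members of 119, and stay low over the first kilobases of the gene.

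Coverage was also read by kind of sequence. Exons of the members were covered to 4.34% and 4.37% in WT, 8.52% and 5.68% in UHRF1KO and 4.97% and 6.79% in DHX9KO. Introns were covered to 5.63% and 5.71%, 9.65% and 6.75%, and 7.61% and 10.4%, in the same order. The 5 kb before the gene was covered to 8.42% and 9.01% in WT, 14.4% and 10.7% in UHRF1KO and 9.11% and 13.5% in DHX9KO. The 5 kb after the gene was covered to 9.73% and 9.55% in WT, 13.1% and 11.5% in UHRF1KO and 10.65% and 14.0% in DHX9KO. Both flanks were above the exons and introns in every library, and the flank after the gene was above the one before it in every library but UHRF1KO replicate 1. Within the windows, covered bases had a GC content of 41.8% to 45.9%, against about 36.6% for uncovered ones, and 63.6% to 67.2% of covered bases were soft-masked repeats.

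A peak lay over the start of 2 members in all 6 libraries: Vmn2r2, at its distal start, and Vmn2r29. Their upstream sequences are shown because these are the starts that carry the mark, and the CpG dinucleotides, the sites of the DNA methylation that UHRF1 maintains, are in capitals. Sequences are from RefSeq on GRCm38.p6 (mm10), written 5′ to 3′ on the gene's strand.
Vmn2r2 upstream, chr3:64170918-64171167, minus strand: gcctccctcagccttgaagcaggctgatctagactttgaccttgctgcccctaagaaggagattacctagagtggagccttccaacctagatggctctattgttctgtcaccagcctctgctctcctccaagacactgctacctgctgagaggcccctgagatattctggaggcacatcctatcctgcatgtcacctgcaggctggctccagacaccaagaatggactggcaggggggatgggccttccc
Vmn2r29 upstream, chr7:7278290-7278539, minus strand: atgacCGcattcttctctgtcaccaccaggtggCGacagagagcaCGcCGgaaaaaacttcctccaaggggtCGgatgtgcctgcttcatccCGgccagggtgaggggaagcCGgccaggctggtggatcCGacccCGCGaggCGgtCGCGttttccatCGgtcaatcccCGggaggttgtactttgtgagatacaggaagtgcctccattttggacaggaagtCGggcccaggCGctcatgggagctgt

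The sequences differ in their CpG: the first holds 0 and the second 17. Over 114 RefSeq promoter entries that matched 113 members, the 250 bases before the start hold a median of 1 CpG, against 6 over all 32851 entries. Without any CpG were 42 entries (36.8%), against 7.87% of all, so 63.2% hold the letters CG at least once, against 92.1% of all; the letters read the same on both strands. The promoter entry of Vmn2r2 holds 2 CpG, while the sequence shown above, before its distal start, holds 0. Vmn2r29 has a pair of entries, the one shown with 17 CpG and another with 0. Apart from the one shown, the highest number among the members is 4, at Vmn2r1, Vmn2r20 and Vmn2r80, while 23.5% of all promoters hold 17 or more.

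The Vmn2r2 start lies inside an intron of Vmn2r1, which runs on the other strand, so the peak there is counted for both genes. It holds 870 and 1001 ChIP reads in WT, 333 and 823 in UHRF1KO, and 726 and 782 in DHX9KO. Its length was 2400 bp in both WT libraries, 2800 and 3000 bp in UHRF1KO, and 4600 and 5200 bp in DHX9KO. The single peak over the Vmn2r29 start was 1400 and 1600 bp long in WT and 5400 to 13400 bp in the knockouts, but WT had further peaks close by that the longer peaks of the knockouts take in. Over the merged region chr7:7277401-7292000, WT had 3 and 4 peaks of 10600 and 10200 bp with 1925 and 1949 reads, and DHX9KO had 3 and 2 peaks of 10600 and 13800 bp with 1244 and 1712 reads. Over chr7:7277001-7301000, merged with UHRF1KO, WT had 15000 bp called in both libraries with 2334 and 2418 reads, and UHRF1KO had 21000 and 20800 bp with 1266 and 3632 reads. The reads of UHRF1KO therefore lay on both sides of WT there. Background reads were also dense at the Vmn2r29 start, at 109 and 96.3 per kb in WT against 26.2 on average in those lists. The part of background in the ChIP reads there was not tested.

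Peaks within the members' windows numbered 177 and 175 in WT, 218 and 184 in UHRF1KO, and 174 and 206 in DHX9KO. They covered 276 and 281 kb in WT, 458 and 334 kb in UHRF1KO, and 340 and 471 kb in DHX9KO. Their median log2 fold of ChIP over background, the peak caller's value, was 1.76 and 1.72 in WT, 1.82 and 1.97 in UHRF1KO, and 1.28 and 1.42 in DHX9KO. In each library this was above the median of the whole list, which was 1.05 and 1.06, 1.56 and 1.29, and 0.93 and 1.01. The peaks were shorter than the list's in every library, with a median of 1400 bp in both WT libraries against 2600 and 2400 bp. The medians were 1800 and 1600 bp in UHRF1KO against 2200 and 2800 bp, and 1800 and 2200 bp in DHX9KO against 2400 and 2600 bp.

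The strongest WT peaks in the windows were short, at 200 to 800 bp. At Vmn2r1, WT replicate 1 had a peak at chr3:64202801-64203200 with 38 ChIP reads over 1 background read, a log2 fold of 5.41 that rests on that single read. At Vmn2r60, WT replicates 1 and 2 had peaks with 29 and 53 ChIP reads over 2 background reads each, log2 folds of 4.02 and 4.95. At Vmn2r6 a peak of WT replicate 1, chr3:64548201-64548600, held 82 reads over 5, a log2 fold of 4.195 that rests on more reads than the others. At Vmn2r114 a peak of WT replicate 1 held 29 reads over 2, a log2 fold of 4.02. The 200-base peaks at Vmn2r60 and Vmn2r114 are shown because they are single bins among the strongest WT peaks and lie in introns, with CpG in capitals and the plus strand of mm10.
Vmn2r60 peak of WT replicate 1, chr7:42172401-42172600, plus strand: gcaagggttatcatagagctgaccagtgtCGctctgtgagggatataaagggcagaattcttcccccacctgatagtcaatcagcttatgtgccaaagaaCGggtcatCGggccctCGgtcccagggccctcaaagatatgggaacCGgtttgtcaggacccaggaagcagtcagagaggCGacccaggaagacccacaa
Vmn2r114 peak of WT replicate 1, chr17:23298801-23299000, plus strand: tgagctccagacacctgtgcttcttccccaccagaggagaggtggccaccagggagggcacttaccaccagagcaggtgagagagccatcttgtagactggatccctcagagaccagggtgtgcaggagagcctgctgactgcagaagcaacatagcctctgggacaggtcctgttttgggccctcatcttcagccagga

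The first holds 6 CpG and the second 0, although both had the same fold over background. Of the 756 peaks of 200 bases in the list of WT replicate 1, 83.9% hold at least 1 CpG. The longest WT peaks were 7600 bp, at Vmn2r61 in replicate 2 and at Vmn2r104 in replicate 1, followed by 7400 bp at Vmn2r22 and 6400 bp at Vmn2r89.

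Among members, the highest WT coverage was at Vmn2r44, Vmn2r56, Vmn2r78, Vmn2r32, Vmn2r49 and Vmn2r53. Vmn2r44 was covered to 26.9% and 22.5% in WT, 62.8% and 39.5% in UHRF1KO, and 23.05% and 45.7% in DHX9KO. Both UHRF1KO libraries were above both WT libraries there, and the DHX9KO libraries lay on both sides of WT replicate 1. Vmn2r32 was covered to 23.7% and 21.4% in WT, 51.4% and 33.1% in UHRF1KO, and 22.2% and 26.04% in DHX9KO. Vmn2r78, by contrast, stayed near 23% in 4 libraries and had 15.0% and 21.2% in UHRF1KO replicate 1 and DHX9KO replicate 1. Vmn2r53 was covered to 20.0% and 21.1% in WT, 13.1% and 21.7% in UHRF1KO, and 26.2% and 24.3% in DHX9KO, so its DHX9KO libraries were above all others. At the low end, Vmn2r3, Vmn2r5, Vmn2r8, Vmn2r12, Vmn2r14 and Vmn2r15 had no peak in either WT library, and Vmn2r5 and Vmn2r15 had none in any library.

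Members with a known role ranged in WT from no peak to 13.6% covered. Vmn2r1 to Vmn2r7 form the C subfamily of these receptors, which many basal neurons express together with another Vmn2r. Vmn2r1 was covered to 7.81% and 7.41% in WT, 13.9% and 9.81% in UHRF1KO, and 12.8% and 18.0% in DHX9KO, with both libraries of each knockout above WT. Vmn2r4 had 5.4% or less in 5 libraries and 12.5% in DHX9KO replicate 2, and Vmn2r5 had no peak in any library. Vmn2r26, a receptor for MHC class I peptides, was covered to 13.6% and 10.7% in WT, 8.1% and 14.1% in UHRF1KO, and 17.9% and 13.6% in DHX9KO, with overlapping groups. Vmn2r116, the receptor of the male pheromone ESP1, and Vmn2r88 had no peak in any library. The upstream sequence of Vmn2r116 is shown as that of an unmarked start, and it holds 0 CpG, as does the sequence before the marked distal start of Vmn2r2.
Vmn2r116 upstream, chr17:23384553-23384802, plus strand: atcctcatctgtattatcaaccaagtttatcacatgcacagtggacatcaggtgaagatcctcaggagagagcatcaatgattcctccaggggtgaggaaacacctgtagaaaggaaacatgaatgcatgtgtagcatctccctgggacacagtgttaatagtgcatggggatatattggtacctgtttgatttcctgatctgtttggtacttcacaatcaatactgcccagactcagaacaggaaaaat

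Each member was next set against WT. In UHRF1KO the mean of the 2 libraries was higher than in WT at 71 members, lower at 27 and equal at 21, with a mean difference of 2.86 percentage points. For scale, the median difference between the replicates of a member was 0.937 points in WT, 2.72 in UHRF1KO and 2.15 in DHX9KO, with extremes of 16.2 at Vmn2r56 in WT and 23.3 at Vmn2r44 in UHRF1KO. Over all genes the mean difference was -10.2 points, and 15.6% of genes were higher and 58.9% lower. Mean coverage in WT was 5.92% for the members against 20.1% over all genes, so the members' mean had less room to fall. The contrast in mean points therefore cannot show that members resisted a loss, with or without UHRF1KO replicate 1. Both UHRF1KO libraries were above both WT libraries at 39 members (32.8%), against 5.59% of all genes, and below them at 9 members (7.56%), against 36.2% of all genes. Without UHRF1KO replicate 1, the library that stands apart, replicate 2 alone was above both WT libraries at 44 members (37.0%, against 16.3% of all genes) and below them at 19 (16.0%, against 37.5%), with a mean difference of 1.38 points against -6.40 over all genes. In DHX9KO the mean was higher at 65 members, lower at 23 and equal at 31, with a mean difference of 2.53 points against -2.35 over all genes. Both DHX9KO libraries were above both WT libraries at 34 members (28.6%), against 11.3% of all genes, and below at 7 (5.88%), against 18.3%. The comparisons share the WT libraries.

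GC content moves with this contrast. In the 20% of all genes with the lowest GC content, which holds 116 of the 119 members, all 6824 genes had means of 4.28% in WT, 5.20% in UHRF1KO and 6.19% in DHX9KO, whereas in the 20% with the highest GC content the means were 30.1%, 7.74% and 21.8%. Among the genes of lowest GC content, 33.3% of genes were higher and 26.3% lower in UHRF1KO, against 61.2% and 20.7% of the members, and 46.7% were higher and 17.4% lower in DHX9KO, against 53.4% and 19.8% of the members. The part of base composition in the difference was not tested further. Among the 67 members with at most 5% repeated words, 18 (26.9%) were above and 4 (5.97%) below WT in both UHRF1KO libraries, and 17 (25.4%) above and 1 (1.49%) below in both DHX9KO libraries, to be read against the same shares of all genes; this split was chosen after seeing the data. With 2 libraries against 2, an exact permutation test of a single member cannot reach a two-sided p below 0.333.

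Across all genes, coverage was tested with limma on the arcsine square root of the covered share. In UHRF1KO against WT, 85 members could be tested and 1 fell and 1 rose at an adjusted p under 0.05, against 15.5% of the 22681 genes tested that fell and 0.904% that rose. Vmn2r85 was covered to 1.6% and 0.7% in WT and to 17.8% and 12.2% in UHRF1KO, so its groups do not overlap. It rose by 13.9 percentage points, or 0.29 on the arcsine square-root scale (SE 0.047, limma adjusted p = 0.0414). Vmn2r9 was covered to 4.1% and 2.0% in WT, had no peak in either UHRF1KO library, and fell by 3.07 points, or by 0.17 on the arcsine square-root scale (SE 0.027, limma adjusted p = 0.0394). Vmn2r9 passed the filter on low coverage only through WT, and without that filter neither call held (limma adjusted p = 0.0786 for Vmn2r9 and 0.145 for Vmn2r85). The Vmn2r85 call was also lost with a 10 kb flank (difference 0.13, limma adjusted p = 0.24), with a log2 fold of at least 1 (0.0521), with an equal number of peaks (0.0688), with all 6 libraries (0.129), with the replicate block (0.0884) and without any one of the 4 libraries (0.0504 to 0.858). The Vmn2r9 call was also lost with all 6 libraries (0.189), with the replicate block (0.0721) and without either UHRF1KO library (0.19 and 0.104; without a WT library Vmn2r9 could not be tested). The median difference of all tested genes was -0.19 on that scale, and with each library centred on its own median 8 members rose (9.41% of those tested, against 2.57% of all genes tested) and 0 fell (against 6.67%).

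The upstream sequences of the member that rose and the member that fell are shown side by side, on GRCm38.p6 from RefSeq, with CpG in capitals.
Vmn2r85 upstream, chr10:130429613-130429862, minus strand: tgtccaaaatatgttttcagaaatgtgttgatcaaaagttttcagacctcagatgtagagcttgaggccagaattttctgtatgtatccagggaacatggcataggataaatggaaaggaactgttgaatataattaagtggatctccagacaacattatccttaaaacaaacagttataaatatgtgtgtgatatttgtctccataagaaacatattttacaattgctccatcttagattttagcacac
Vmn2r9 upstream, chr5:108852511-108852760, minus strand: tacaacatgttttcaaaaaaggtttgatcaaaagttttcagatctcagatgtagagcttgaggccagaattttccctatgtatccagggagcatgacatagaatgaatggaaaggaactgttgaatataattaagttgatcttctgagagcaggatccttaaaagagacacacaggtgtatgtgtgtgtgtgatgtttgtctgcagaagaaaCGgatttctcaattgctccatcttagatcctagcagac

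Neither start carries a peak in any library. The sequences hold 0 and 1 CpG, and a longest shared run is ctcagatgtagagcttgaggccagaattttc, of 31 bases, which ties with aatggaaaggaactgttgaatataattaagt. On either strand the first run occurs in 8 of the 114 Vmn2r entries (7.02%) and the second in 4 (3.51%), and in no other of the 32851 promoters. The runs were chosen from these sequences, so their frequency among members is a description of related copies. Most of the DNA newly covered at Vmn2r85 was 1 region over its last coding exon, chr10:130418201-130421000, where no WT library had a peak and the UHRF1KO libraries held 78 and 113 ChIP reads, log2 folds of 1.74 and 1.23. The same exon was gained in DHX9KO, at chr10:130417801-130419800, with 41 and 83 reads, and DHX9KO coverage of Vmn2r85 was 1.9% and 12.2%. The region Vmn2r9 lost, chr5:108855601-108856400, held 69 and 87 reads in WT, log2 folds of 0.41 and 1.49.

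The largest gains in mean coverage in UHRF1KO that did not pass the test were at Vmn2r44, Vmn2r86, Vmn2r30, Vmn2r32, Vmn2r74 and Vmn2r49. Vmn2r86 was covered to 0% and 7.1% in WT, 26.4% and 21.3% in UHRF1KO, and 25.4% and 17.3% in DHX9KO, with no overlap between WT and either knockout. Vmn2r74 had no WT peak and was covered to 29.2% and 8.2% in UHRF1KO, where replicate 1 was far above replicate 2. Vmn2r30 was covered to 6.8% and 5.6% in WT, 31.9% and 20.0% in UHRF1KO, and 8.5% and 27.4% in DHX9KO. Repeated words make up 27.1% at Vmn2r44, 39.1% at Vmn2r30, 39.0% at Vmn2r32 and 37.6% at Vmn2r49, so values there are uncertain. They make up 3.05% at Vmn2r86 and 0% at Vmn2r74. The lowest values against WT were at Vmn2r11, Vmn2r55, Vmn2r54, Vmn2r117, Vmn2r120 and Vmn2r23. Vmn2r55 was covered to 12.01% and 5.1% in WT, 0% and 1.4% in UHRF1KO, and 21.3% and 15.7% in DHX9KO, so its knockouts lay on opposite sides of WT.

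In DHX9KO against WT, 86 members were tested with limma and 0 were called, as were 0 of all 24168 genes (0% lower and 0% higher). Unadjusted, 5 members were lower (5.81%, against 7.12% of all genes tested) and 6 higher (6.98%, against 4.10%) with p under 0.05. The lowest adjusted p of a member, from limma, was 0.139, at Vmn2r71. The largest gains in mean coverage were at Vmn2r86, Vmn2r90, Vmn2r56, Vmn2r18, Vmn2r79 and Vmn2r30. Vmn2r90 was covered to 1.4% and 5.4% in WT and to 16.4% and 22.4% in DHX9KO, Vmn2r18 to 2.3% and 5.1% and to 12.5% and 22.7%, both without overlap. The lowest values against WT were at Vmn2r50, Vmn2r73, Vmn2r51, Vmn2r35, Vmn2r49 and Vmn2r31, of which Vmn2r50 was covered to 17.6% and 13.7% in WT and to 4.6% and 6.8% in DHX9KO.

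Between the knockouts, limma tested 83 members and called 0, as it did 0 of 21667 genes (0% in either direction). Unadjusted, 6 members were lower (7.23%, against 0.974% of all genes tested) and 4 higher (4.82%, against 16.2%) in DHX9KO than in UHRF1KO with p under 0.05. The lowest adjusted p from limma, 0.0689, was shared by Vmn2r51 and Vmn2r38.

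Clusters differed from each other. In the Vmn2r29 to Vmn2r52 cluster, with 24 members, the mean coverage was 7.11% and 6.79% in WT, 16.1% and 10.7% in UHRF1KO, and 4.92% and 8.16% in DHX9KO, with 16 members higher and 2 lower in UHRF1KO and 5 higher and 10 lower in DHX9KO. Repeated words average 57.2% in this cluster, so its values are uncertain. Among all members with over 50% repeated words, 3 were higher and 7 lower in DHX9KO. Among those with at most 5%, 39 were higher and 10 lower. The part of repeated sequence in the cluster's values was not tested. In the Vmn2r84 to Vmn2r87 cluster of chromosome 10 the mean coverage was 6.22% and 6.82% in WT, 19.6% and 15.5% in UHRF1KO, and 13.5% and 16.2% in DHX9KO, and all 4 members were higher in both knockouts. The Vmn2r53 to Vmn2r56 cluster went the other way in UHRF1KO: it was covered to 14.4% and 16.7% in WT, 7.93% and 13.4% in UHRF1KO, and 22.4% in both DHX9KO libraries. All 4 of its members had lower mean values in UHRF1KO, and 3 of 4 higher ones in DHX9KO. The Vmn2r90 to Vmn2r110 cluster of chromosome 17, with 22 members, had 3.87% and 3.55% in WT, 9.31% and 4.89% in UHRF1KO, and 4.33% and 6.08% in DHX9KO. The Vmn2r111 to Vmn2r117 cluster on the same chromosome had 10.5% and 8.79% in WT, 7.49% and 8.40% in UHRF1KO, and 13.1% and 16.2% in DHX9KO. These are descriptions; members of a cluster are not replicates, and no test was run between clusters.

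**Figure D4:**
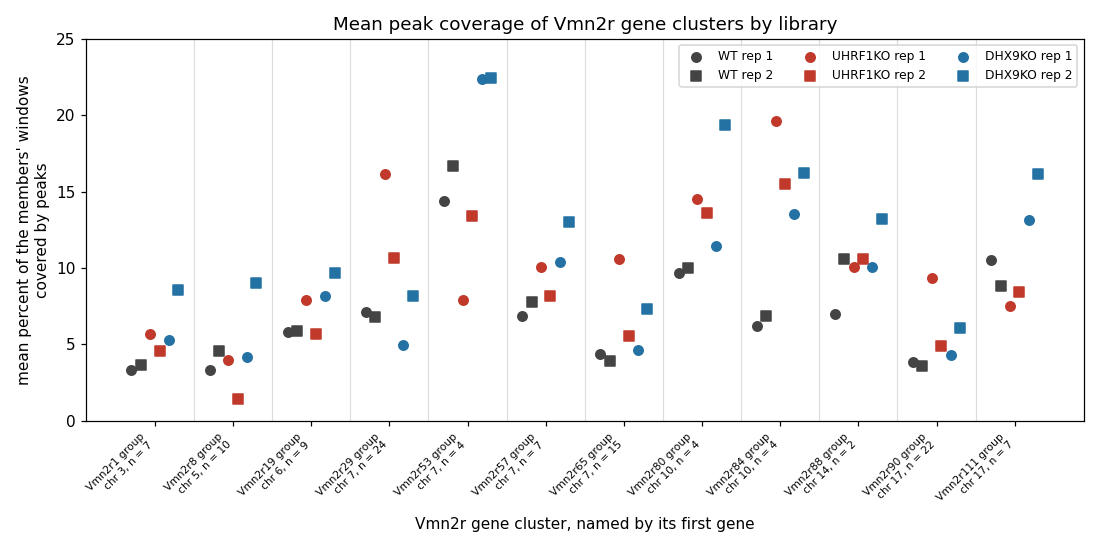
Mean percent of the members' windows covered by H3K9me3 peaks (vertical axis) for the 12 clusters with more than 1 Vmn2r gene (horizontal axis, named by their first gene, with the number of members), with 1 point per library (circle, replicate 1; square, replicate 2). Both UHRF1KO points lie above both WT points in the Vmn2r1, Vmn2r29, Vmn2r57, Vmn2r65, Vmn2r80, Vmn2r84 and Vmn2r90 groups. They lie below both in the Vmn2r53 and Vmn2r111 groups. DHX9KO points lie at 22.4% in the Vmn2r53 group.

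Reads within peaks were tested where every library had called the same region. In UHRF1KO against WT, 11 regions in the members' windows could be tested with edgeR and 1 fell, against 6.37% of the 2528 regions tested that fell and 1.9% that rose. It is chr3:64170001-64173000, the Vmn2r2 start described above, with a log2 change of -0.81 (SE 0.12, edgeR adjusted p = 0.000819) over 870 and 1001 reads in WT and 333 and 823 in UHRF1KO. The other 10 had log2 changes from -0.37 at Vmn2r100 to 0.30 at Vmn2r91. The call was lost without either WT library (edgeR adjusted p = 0.0672 and 0.16). In DHX9KO against WT, 12 such regions were tested and 0 were called, against 0.489% of 4701 that fell and 0.0425% that rose. At an unadjusted p under 0.05 were 3 of the 12, against 12.1% of all regions tested, and DESeq2 called 0. The largest change among them, at Vmn2r45, was -0.75 (SE 0.19, edgeR adjusted p = 0.109), from 159 and 131 reads in WT to 87 and 84 in DHX9KO. With all regions called in every library, and called length as offset, 115 regions lay in the windows in DHX9KO. Of these, 92 fell and 23 rose, with a median log2 change of -0.246 against -0.011 over all 58214 regions. In UHRF1KO 60 of 109 fell and 49 rose, with a median of -0.035 against -0.087 over all regions.

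**Figure D5:**
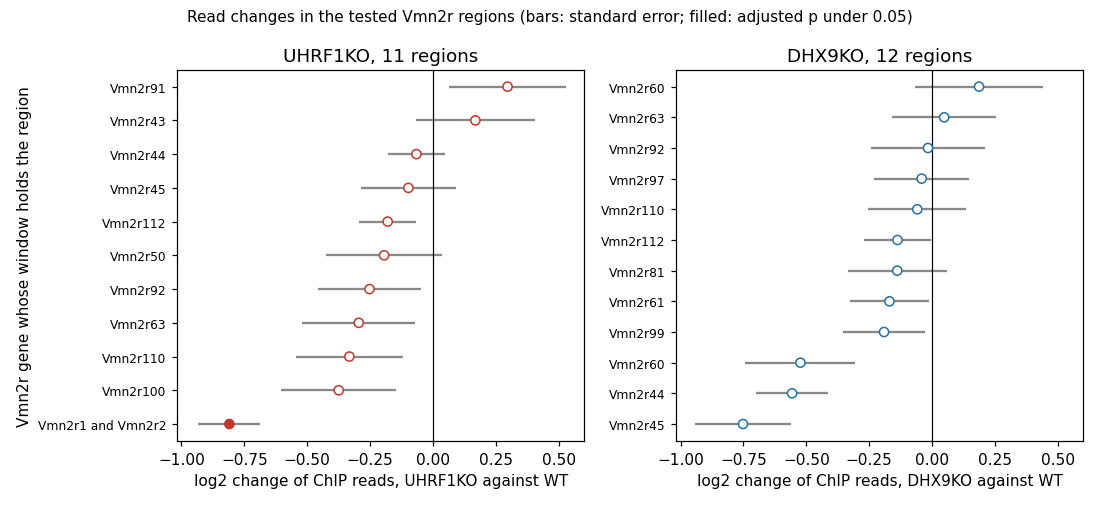
Log2 change of ChIP reads against WT (horizontal axis) for each tested region in a Vmn2r window (rows, named by the gene), in UHRF1KO (11 regions) and DHX9KO (12 regions), with bars for 1 SE and filled points for an adjusted p under 0.05. The one filled point is the region of Vmn2r1 and Vmn2r2, at -0.81 in UHRF1KO.

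A region with a peak in both libraries of WT and in none of a knockout was counted as lost, and the reverse as gained. In UHRF1KO, 17 of 146 WT regions in the windows were lost (11.6%, against 24.2% of all regions) and 17 of 141 UHRF1KO regions were gained (12.1%, against 8.51%). In DHX9KO, 10 of 148 were lost (6.76%, against 6.97%) and 18 of 144 gained (12.5%, against 8.74%). The strongest region lost in UHRF1KO was at Vmn2r24, chr6:123793601-123794200, with 56 and 45 reads in WT and log2 folds of 2.80 and 2.54. The strongest gained was at Vmn2r38, chr7:9081801-9084000, with 37 and 76 reads in UHRF1KO and log2 folds of 3.43 and 3.32. The strongest lost in DHX9KO was the Vmn2r60 intron shown above, chr7:42172401-42173200, with 29 and 53 reads in WT. At Vmn2r42 a region was lost in UHRF1KO and in DHX9KO, and at Vmn2r48 one was gained in UHRF1KO. The Vmn2r42 window still held 1 peak in UHRF1KO replicate 1, over 0.739% of it, the same share as in each WT library. Repeated words make up 84.9% at Vmn2r42, 55.5% at Vmn2r48 and 62.7% at Vmn2r38, so values there are uncertain. The regions at Vmn2r42 and Vmn2r48 are shown, on the plus strand of mm10, as regions that appeared or disappeared as a single bin, and both lack CpG.
Vmn2r42 lost, chr7:8180801-8181000, plus strand: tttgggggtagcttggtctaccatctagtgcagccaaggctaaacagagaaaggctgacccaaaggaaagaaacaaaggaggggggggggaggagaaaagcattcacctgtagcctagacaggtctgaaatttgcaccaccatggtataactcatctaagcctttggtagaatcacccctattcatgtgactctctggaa
Vmn2r48 gained, chr7:9935201-9935400, plus strand: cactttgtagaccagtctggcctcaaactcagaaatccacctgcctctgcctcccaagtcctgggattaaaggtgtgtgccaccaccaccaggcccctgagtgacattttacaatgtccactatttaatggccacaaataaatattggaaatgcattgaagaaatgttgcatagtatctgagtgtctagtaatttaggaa

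Other gene lists of the pathway were read in the same way. The 206 Vmn1r genes had means of 6.28% and 6.11% in WT, 8.15% and 5.85% in UHRF1KO, and 7.41% and 10.3% in DHX9KO. With limma, 7 of 79 tested Vmn1r genes fell and 5 rose in UHRF1KO, as did 61 and 16 of 489 Olfr genes. Among all 22681 genes tested, 15.5% fell and 0.904% rose. Of 15 Esp genes, which encode peptides of exocrine glands, among them the pheromone ESP1, Esp5 rose in UHRF1KO (1 of 7 tested), with 0% in both WT libraries. Of 14 partners of the receptors, 3 of 10 tested fell in UHRF1KO, against 15.5% of all genes tested: H2-M10.3, H2-M10.6 and H2-M11, which encode MHC class I-like molecules that basal vomeronasal neurons express together with Vmn2r receptors. All 3 had 0% in both UHRF1KO libraries, so they passed the filter on low coverage only through WT, and Esp5 only through UHRF1KO. The 5 Vmn2r pseudogenes of the annotation (Vmn2r-ps) had means of 16.1% and 18.0% in WT, 23.1% and 17.8% in UHRF1KO, and 18.1% and 23.1% in DHX9KO. These means are carried by Vmn2r-ps159 and Vmn2r-ps54, at 47.8% and 25.3% over the WT libraries, while Vmn2r-ps60 and Vmn2r-ps129 had 2.92% and 0%, and 0 of the 3 that limma tested in UHRF1KO were called. None of these lists had a call in DHX9KO.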

How the data were processed

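H3K9me3 ChIP-seq peak lists of 6 of 18 samples were used, 2 each of WT, UHRF1KO and DHX9KO, grouped by the sample labels; the other 12 samples were not analysed here. The authors aligned reads to mm10 with Bowtie2 2.3.4.3, subsampled them with SAMtools and called peaks in each library with epic2, named SICER 0.0.51 in their processing notes, keeping duplicates, in 200 bp bins. For each peak the deposited lists hold raw read counts, ChIP and background. They also hold, as the authors' peak caller made them, a p-value with its FDR, a log2 fold of ChIP over background and a score, which was not used. Counts cover counting error only. Windows were each gene's transcripts in the deposited GTF plus 5 kb on each side, with chromosome 2 positions shifted for the reporter insert. Peak coverage, as the arcsine square root of the covered share, was tested with limma 3.58.1 over genes covered in at least 2 of the libraries fitted. ChIP reads over merged regions, each called in all 4 libraries over at least 80% of its length, were tested with edgeR 4.0.16 (quasi-likelihood, TMM, called length as offset) in R 4.3.3, two-sided, with Benjamini-Hochberg adjustment at 0.05, and with DESeq2 1.42.0 as an alternative. Both tests were tried on simulated data. Other alternatives were stricter peak filters, other flanks, other scalings, a replicate block and leaving out each library; the split by repeated words and the counts without UHRF1KO replicate 1 were added after seeing the data. Named members are the 6 highest and 6 lowest in WT, the 6 largest gains and losses per knockout, those past a test, the 5 strongest lost and gained regions in each direction, those with a known role, and those with the 5 strongest or longest WT peaks. Ties for the lowest in WT were broken by gene number. Others named for a cluster, a start, the promoter CpG or a p-value were chosen after their values were seen. The members and lists were chosen with earlier results of these data known.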

Additional observations from a re-analysis of the deposited data

Results flagged for a closer look

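At 7 members both libraries of one knockout lay above both WT libraries while both libraries of the other lay below them. UHRF1KO was above and DHX9KO below WT at 4 members (3.36%, against 0.185% of all genes), Vmn2r49, Vmn2r50, Vmn2r51 and Vmn2r97, where mean coverage in UHRF1KO exceeded that in DHX9KO by 20.95, 20.7, 15.2 and 10.5 percentage points. At Vmn2r51, for example, 2.81% and 9.84% of the window was covered in WT, 14.8% and 15.7% in UHRF1KO, and 0% in both DHX9KO libraries. The reverse held at 3 members (2.52%, against 2.03% of all genes), Vmn2r55, Vmn2r113 and Vmn2r117, with UHRF1KO minus DHX9KO differences of -17.8, -0.835 and -13.7 points. In the direct limma test between the knockouts none of the 7 passed, with adjusted p from 0.0689 at Vmn2r51 to 0.515 at Vmn2r97. Vmn2r49, Vmn2r50 and Vmn2r51 are neighbours in one cluster and have 37.6%, 26.1% and 17.5% of their 150-base words repeated in the genome, and Vmn2r113 has 38.4%. The part of repeated sequence in these values was not tested.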

How the results depend on the processing

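The tests rest on 2 libraries a group, on lists without reads outside peaks, and on copies whose reads may be shared. Members called for coverage in UHRF1KO, 2 as reported, numbered 0 within 1 kb of starts, with all 6 libraries in 1 fit and with the replicate block, 1 without the arcsine or the filter on low coverage, 4 with a log2 fold of at least 1 or an equal number of peaks, 8 with centring, 9 with a stricter FDR of 1e-10, and 0 to 3 without 1 library. Of those 9, 4 were lower and 5 higher. Calls over all genes also moved with the setting. For the coverage tests the share over all genes is given here for centring only. The member counts at the other settings are therefore not a result about the members. With centring 6.67% of all genes tested were lower and 2.57% higher, against 15.5% and 0.904% as reported. With centring the Vmn2r9 difference turned to 0.045 on the arcsine square-root scale (limma adjusted p = 0.804). For DHX9KO coverage, 0 as reported, the count was 3 with no filter. Between the knockouts, 0 as reported, it was 4 with no flank and 1 with centring. Regions called in UHRF1KO, 1 as reported, numbered 0 with equal library sizes, where 0 of all 2528 regions were called. They numbered 0 with all regions called in every library, where 0 of 40511 were called. With all 6 libraries they also numbered 0, while 26 of 901 regions fell and 4 rose. The Vmn2r2 region kept its call with the replicate block (edgeR adjusted p = 0.00119) and with DESeq2 (0.000245). In DHX9KO, 0 as reported, 1 region was called with all regions, where 6 of 58214 regions fell and 0 rose. With the replicate block 1 was called, where 64 of 4701 fell and 16 rose. Regions lost in DHX9KO, 10 as reported, numbered 16 with a log2 fold of at least 1 and 6 with no flank, and those gained, 18 as reported, 4 with the stricter FDR and 7 with a log2 fold of at least 1 or an equal number of peaks. Without 1 library, 20 to 38 were lost and 24 to 89 gained in UHRF1KO, and 15 to 28 lost and 23 to 55 gained in DHX9KO, since fewer libraries then define a loss or gain. The counts over all regions moved too. Gains in UHRF1KO went from 4210 as reported to 13453 without UHRF1KO replicate 2. Those in DHX9KO went from 6387 as reported to 23635 without DHX9KO replicate 1, and to 2645 with the stricter FDR. Mean WT coverage, 5.92% as reported, was 4.49% with the stricter FDR and with no flank, 4.86% with a log2 fold of at least 1, 4.94% with an equal number of peaks and 7.72% with a 10 kb flank, and 5.88% to 5.95% without 1 library. The cause was not tested for other shifts. Replicate numbers did not pair the libraries (correlations of replicate deviations -0.024, 0.037 and -0.102).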
